A study of Mus musculus with 2 samples.

Results

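H2AZ is a variant of histone H2A that replaces it in a part of the nucleosomes. It is best known from the nucleosomes beside active promoters and from enhancers, which are regulatory stretches that can lie far from the gene they act on. Remodelling complexes such as SRCAP place it, and in mouse neural progenitors, the dividing cells that give rise to neurons and glia, it has been studied together with the histone methyltransferase Setd2. The regions described here are its weak peaks in the ground between genes: peaks with a midpoint outside every protein-coding gene, more than 5 kb and at most 100 kb from the nearest end of one, with a score under 15 and with no end of a long non-coding RNA (lncRNA) gene within 1 kb. They number 3297 of 21546 peaks (15.3%, 95% interval 14.8 to 15.8%) and are called weak intergenic peaks below.

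Neural progenitor cells were taken from the brain at embryonic day 13 (mouse strain C57BL/6), and the series holds 1 H2AZ chromatin immunoprecipitation (ChIP) library and 1 input library. All values come from 1 deposited peak list with a position and a score per peak. The authors' score chose the regions, its meaning is not named in the file, and it is used here only to describe peaks within the list. Each group is a single library, so no value can be set against a replicate and no difference was tested. Depth is unknown, and the intervals given (95%, exact Clopper-Pearson for shares and exact Poisson for densities) cover counting error only. The list shows peaks, not expression. Of 12 genes listed as markers of radial glia, a kind of neural progenitor, 10 had a listed peak within 1 kb of an end. So had 4 of 12 endothelial, 6 of 12 erythroid and 2 of 14 microglia and white blood cell markers, and 55.4% of all 21774 protein-coding genes. Housekeeping genes had one in 16 of 18, neuronal synapse and channel genes in 18 of 22 and axon guidance and cell adhesion genes in 31 of 42. A high share is thus not particular to progenitor markers.

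Of the peaks outside genes, 4350 lay in the distance range, of which 359 scored 15 or more, 3991 scored under 15, and 694 of those under 15 had an lncRNA gene end within 1 kb. Weak intergenic peaks are therefore 75.8% of the intergenic peaks at these distances. Their scores ran from 3.72 to 14.97 with a median of 7.76, and their widths from 534 to 7492 bp with a median of 1560 bp. Just inside the score limit stood a peak of 14.97 beside Slc47a1, a multidrug transporter gene, and just outside it a peak of 15.11 beside Fblim1, a filamin-binding protein gene. Close to the lower distance limit, a peak 5012 bp from Gcm1, a transcription factor gene, was included with a score of 8.35, and a peak 4999 bp from 1700122O11Rik was left out. At the upper limit the last included peak lay 99940 bp from Il20rb, and the first left out lay 100218 bp from Bach2.

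The list holds no sequence, so sequence can be shown only for annotated transcripts inside these peaks. Such peaks have no lncRNA gene end nearby, but 14 of them held the whole 300-base promoter (250 bases before to 50 after a transcript start) of an internal start of an lncRNA gene, 19 promoters of 14 genes in all. They are shown as annotated transcript starts inside weak peaks, and whether they are used in these cells is not known. The dinucleotide CG, which reads the same on both strands, was counted in each. The median was 6 per promoter in these 19, against 4 in 11588 lncRNA promoters and 13 in 21263 protein-coding promoters of the same RefSeq table (GRCm38.p6), and at least 1 CG was present in 100% of the 19, 93.1% of the lncRNA and 95.4% of the protein-coding promoters. The highest count of the 19, 18 in Gm33616, was reached by 10.3% of all lncRNA and 40.3% of protein-coding promoters. Some of the 19 belong to the same gene and overlap, so they are not independent. In its peak 9430078K24Rik had promoters with 9 and with 4 CG, and the one with 9 is printed. Printed below, 5′ to 3′ on the strand of the gene with each CG in capitals, are Gm33616 (chr9:106418301-106418600, minus strand, in a peak of score 10.14 lying 10.5 kb from the ribosomal protein gene Rpl29), 9430078K24Rik (chr12:79925445-79925744, minus strand, in a peak of score 7.65 that is the last of a cluster beside Rad51b) and Gm29952 (chr12:80273187-80273486, plus strand, with 3 CG, the lowest count, in a peak of score 7.65 whose nearest gene is the actinin gene Actn1).
Gm33616: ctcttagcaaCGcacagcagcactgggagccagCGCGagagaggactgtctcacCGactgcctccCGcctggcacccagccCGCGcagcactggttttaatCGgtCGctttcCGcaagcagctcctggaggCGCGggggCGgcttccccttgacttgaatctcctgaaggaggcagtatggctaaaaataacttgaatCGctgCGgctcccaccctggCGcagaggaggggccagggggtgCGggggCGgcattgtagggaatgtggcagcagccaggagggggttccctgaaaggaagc
9430078K24Rik: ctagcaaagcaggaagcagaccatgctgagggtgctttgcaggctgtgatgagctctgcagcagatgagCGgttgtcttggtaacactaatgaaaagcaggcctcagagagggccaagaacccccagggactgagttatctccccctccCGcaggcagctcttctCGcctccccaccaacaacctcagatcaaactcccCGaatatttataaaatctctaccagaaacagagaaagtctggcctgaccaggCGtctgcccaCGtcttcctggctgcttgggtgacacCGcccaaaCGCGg
Gm29952: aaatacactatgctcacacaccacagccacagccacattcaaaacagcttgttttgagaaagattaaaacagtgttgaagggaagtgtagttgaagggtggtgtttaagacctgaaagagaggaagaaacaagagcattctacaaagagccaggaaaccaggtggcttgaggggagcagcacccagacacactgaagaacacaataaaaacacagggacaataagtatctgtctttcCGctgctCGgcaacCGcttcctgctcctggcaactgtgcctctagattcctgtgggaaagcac

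MicroRNA genes were overlapped by 5 weak peaks (0.152%, 0.0493 to 0.354%). The share was 0.497% (0.407 to 0.600%) of all listed peaks and 0.0328% of the ground on which such peaks could be found. The weak peak at Mir129-2 and Mir129b holds a pair of hairpins annotated on opposite strands of overlapping bases. MicroRNAs are short RNAs that pair with messenger RNAs through their seed, bases 2 to 8. That peak, chr2:94240060-94242273, scored 8.35 and lay 59.6 kb from Ttc17, inside the lncRNA gene Mir670hg, which carried 3 weak peaks in all. Its mature microRNAs, from RefSeq (GRCm38.p6) with the seed in capitals, are given below.
mmu-miR-129-5p: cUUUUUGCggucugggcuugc
mmu-miR-129-2-3p: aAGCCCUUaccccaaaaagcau
mmu-miR-129b-5p: gCUUUUUGggguaagggcuucc
mmu-miR-129b-3p: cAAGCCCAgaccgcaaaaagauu
No seed was shared among these or among all 9 mature microRNAs that the table gives for the overlapped genes. A peak over Mir124a-3, one of the genes of the neuronal microRNA miR-124, scored 12.07 and lay 10.7 kb from Ythdf1. Peaks over Mir713, Mir7229 and Mir7688 scored 12.53, 10.44 and 9.55.

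Weak intergenic peaks were most dense near genes, and their density changed slowly with distance. To set counts against the ground on which such a peak could be found, every position was taken at which a window of the median width would meet the position criteria of the rule. This admitted ground measured 688 Mb and held 4.80 weak peaks per Mb (4.63 to 4.96). The density was 5.32 per Mb (4.88 to 5.80) at 5 to 10 kb from a gene end, 5.85 per Mb (5.45 to 6.26) at 10 to 20 kb, 4.71 per Mb (4.23 to 5.22) at 30 to 40 kb and 3.45 per Mb (3.08 to 3.85) at 75 to 100 kb. Weak peaks over 100 kb from genes, on 744 Mb chosen by the same criteria but for distance, came to 1.55 per Mb (1.47 to 1.65). Strong intergenic peaks, which differ from the weak ones in score alone, came to 0.600 per Mb (0.458 to 0.773) at 5 to 10 kb and 0.132 per Mb (0.0681 to 0.230) at 75 to 100 kb. The distance to the nearest gene end had a median of 25.6 kb in weak peaks, against 17.8 kb in the 254 strong ones. Among weak peaks the median distance was 31.8 kb at scores under 5 and 20.3 kb at scores of 12 to 15, within the limits that the rule sets on both. Between these it showed no steady change, at 26.5, 27.1, 24.9 and 25.3 kb with rising score. The rank correlation of score with distance over all 3297 was -0.06.

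**Figure D1:**
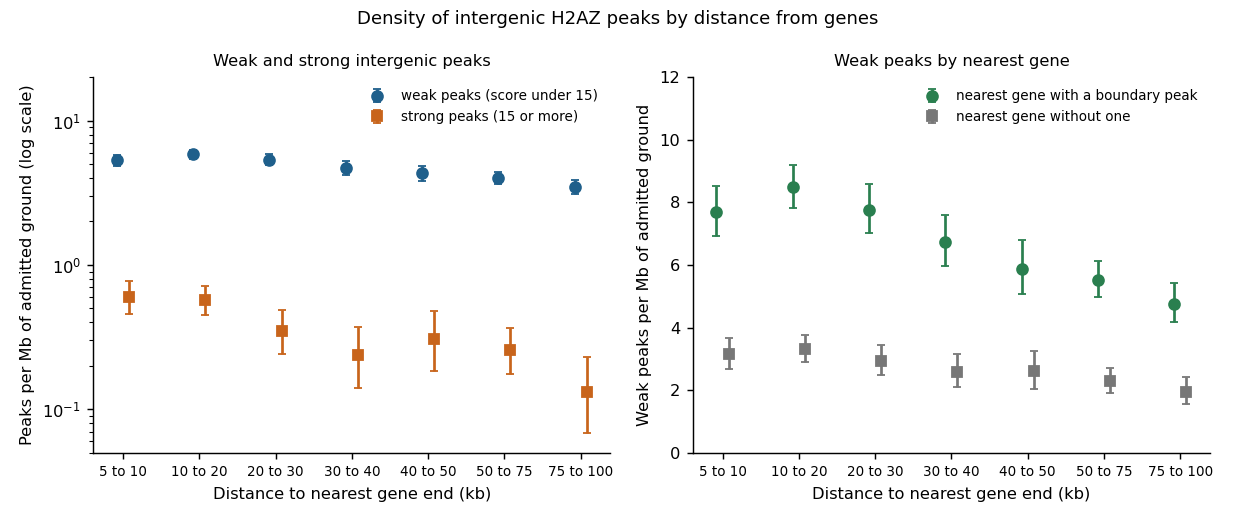
Peaks per Mb of admitted ground (vertical axis; logarithmic on the left, linear on the right) by distance to the nearest protein-coding gene end in kb. Left, weak and strong intergenic peaks; right, weak peaks split by whether their nearest gene has a listed peak within 1 kb of an end. Points are densities and bars 95% exact Poisson intervals for counting error. At every distance the weak peaks beside genes with such a peak are denser, with 8.48 against 3.32 per Mb at 10 to 20 kb.

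Strand was known for the nearest gene of 2597 weak peaks, and 52.4% (50.5 to 54.3%) lay beyond its 5′ end, against 53.7% of the admitted ground. Densities were 4.68 per Mb (4.43 to 4.94) beyond 5′ ends and 4.93 per Mb (4.66 to 5.21) beyond 3′ ends, and these intervals overlap.

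A listed peak at the nearest gene went with a higher density. A boundary peak is here a listed peak that overlaps the 1 kb on either side of a gene end, and such a peak stood at the nearest gene of 2370 of the 3297 weak peaks (71.9%, 70.3 to 73.4%), against 50.8% of the admitted ground and 55.4% of all protein-coding genes. Weak peaks came to 6.78 per Mb (6.51 to 7.06) where the nearest gene had a boundary peak and 2.74 per Mb (2.57 to 2.93) where it had none, a ratio of 2.47. With genes of every annotated kind in place of protein-coding genes, the share with a boundary peak was 38.1%, against 32.1% of all genes. On autosomes alone the ratio was 2.02, and it was 2.30 without the olfactory, vomeronasal and trace amine receptor genes. Density was 6.77 per Mb (6.41 to 7.14) with a boundary peak at the near end and 6.79 per Mb (6.38 to 7.22) with one at the far end only, 7.04 per Mb (6.69 to 7.40) with a boundary peak of 15 or more and 6.36 per Mb (5.94 to 6.81) with a lower one. Split by strand too, a boundary peak at the near end went with 9.52 per Mb (7.32 to 12.2) beyond 3′ ends, from 63 weak peaks on only 6.62 Mb. Beyond 5′ ends it went with 6.72 per Mb (6.31 to 7.16). Weak peaks can share a nearest gene and are counted singly, so these intervals are too narrow to tell the densities apart. Strong intergenic peaks showed a boundary peak at the nearest gene in 68.5% (62.4 to 74.2%), so the association is not particular to the weak intergenic ones. Weak peaks in gene interiors showed one in 65.6% (63.7 to 67.4%), but no share of interior ground was measured to read this against.

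The size of the interval between genes also moved with density. Between neighbouring genes less than 50 kb apart there were 7.09 weak peaks per Mb of admitted ground (6.57 to 7.63), at 100 to 200 kb 5.24 per Mb (4.89 to 5.61), and in intervals of 500 kb or more 2.50 per Mb (2.23 to 2.79). Within each of the 5 size classes the ground beside genes with a boundary peak was denser, by a ratio of 2.20 in the largest intervals to 2.88 in the smallest. In intervals of 50 to 100 kb the densities were 9.31 per Mb (8.55 to 10.1) with a boundary peak and 3.46 per Mb (3.02 to 3.94) without. The parts that read mappability, base composition and open chromatin play in these densities were not tested.

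Weak peaks were sparse on the X chromosome, which held 34 on 57.9 Mb, or 0.587 per Mb (0.407 to 0.821), against 5.52 per Mb of admitted ground (5.33 to 5.71) on autosomes. Autosomes ran from 3.25 per Mb (2.74 to 3.83) on chromosome 7 to 8.70 per Mb (7.61 to 9.91) on chromosome 11, and the Y chromosome held 1 weak peak on 38.5 Mb. Weak intergenic peaks were 6.88% of the 494 listed peaks on X, against 15.5% of the 21050 on autosomes, so on X they were scarcer than listed peaks as a whole. Strong intergenic peaks were 2 of the 494 on X (0.405%), against 1.20% of listed peaks on autosomes. With only 2 peaks it cannot be told whether the scarcity on X is particular to the weak ones. The sex of the embryos is not given in the labels, and the part of X copy number was not tested. Olfactory, vomeronasal and trace amine receptor genes, which sit in large arrays and are silent in most tissues, had 21 weak peaks on 31.1 Mb, or 0.675 per Mb (0.418 to 1.03), and only 3 of these 1476 genes had a boundary peak.

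**Figure D2:**
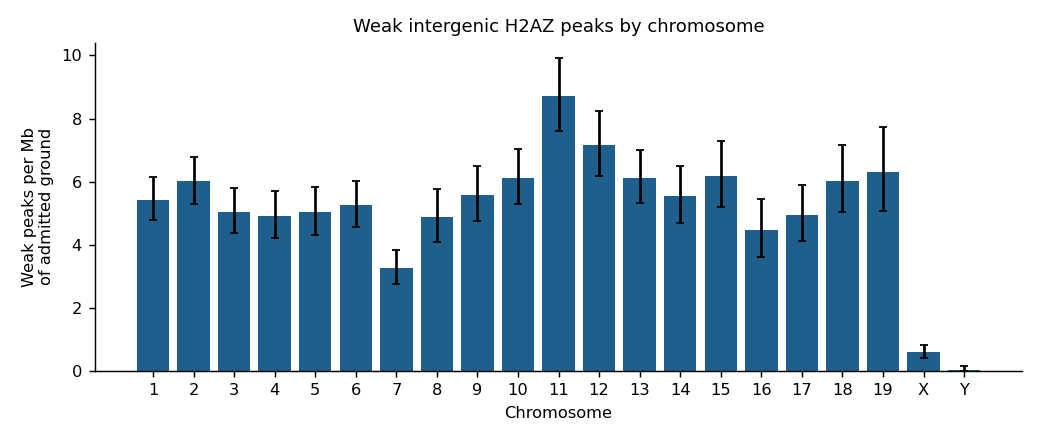
Weak intergenic peaks per Mb of admitted ground (vertical axis) on each mouse chromosome (horizontal axis). Bars are densities and lines 95% exact Poisson intervals for counting error; chromosome 11 is highest at 8.70 per Mb, chromosome 7 lowest of the autosomes at 3.25, and X stands at 0.587.

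Weak intergenic peaks had 2420 nearest genes, 11.1% of all protein-coding genes and 15.2% (14.7 to 15.8%) of the 15881 that own admitted ground. Of these, 1803 genes had 1 weak peak, 436 had 2 and 181 had 3 or more, which is 0.831% of all protein-coding genes. The share of genes with a weak peak was 6.39% with under 20 kb of admitted ground, 17.5% with 20 to 50 kb, 29.8% with 50 to 100 kb, while 551 of 2203 genes with 100 to 200 kb had one. The share thus rose up to 50 to 100 kb of ground and was lower again at 100 to 200 kb. Density fell from each class to the next, at 8.86 per Mb (8.13 to 9.64), 7.02 per Mb (6.53 to 7.54), 5.64 per Mb (5.32 to 5.97) and 2.70 per Mb (2.52 to 2.88) in the same order. Described next are 20 genes with 4 to 8, in groups by what they are known to do. Predicted genes such as 1700001O22Rik, which had 6, were left out, and of the 38 genes with 4 those with the most weak peaks per 100 kb of ground were taken.

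Cstad, named for its induction in activated T cells, had the most, 8 on 110 kb of admitted ground, with scores of 12.23, 7.46, 11.04, 8.65, 7.16, 8.05, 9.84 and 7.46 from left to right on chromosome 2. The 2 to its left lay 40.8 and 7.87 kb away, and the 6 to its right 5.34 to 84.0 kb away. Zfp516, a zinc finger transcription factor gene on chromosome 18, had 7, with scores of 5.97 to 11.53, the nearest at 37.2 kb and the farthest at 97.0 kb. Those 5 with the lowest coordinates lay on its left and the other 2 on its right, none closer than 37.2 kb.

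Genes of signalling and chromatin made up part of the remainder. Cxxc4, whose product binds CpG-rich DNA and inhibits Wnt signalling, had 6 on 179 kb. Smad6, an inhibitory Smad of the BMP pathway, had 5, of which the 3 beyond its 5′ end scored 8.65, 14.13 and 14.62 and lay within 36.2 to 44.9 kb of it. Spry2, an inhibitor of receptor tyrosine kinase signalling, had 5 with scores of 5.45 to 9.72, of which a pair lay 23.9 and 26.2 kb beyond its 5′ end. Vrk1, a kinase of chromatin proteins, had 6, and 5 of them lay beyond its 5′ end at 36.3 to 80.3 kb with scores of 6.22 to 14.32. Irf2bpl, a nervous system gene of the interferon regulatory factor 2 binding family, had 6 on 58.4 kb with 3 beyond each end, at 10.3 to 43.9 kb, although no boundary peak was listed for it.

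Housekeeping functions and immune genes were among the 20 as well. Rad51b, a paralogue of the recombinase of DNA break repair, had 5, all beyond its 3′ end. Rps24, a protein of the small ribosomal subunit, had 5 beyond its 3′ end at 11.3 to 82.3 kb, and Rngtt, the messenger RNA capping enzyme, had 5 beyond its 3′ end at 23.9 to 92.9 kb. Parp11, an ADP-ribosyltransferase, had 5, all beyond its 5′ end, whose scores of 10.44, 9.84, 9.38, 9.11 and 8.65 came in the order of their distances, from 83.3 kb at the highest to 6.23 kb at the lowest. Zfp217, a zinc finger repressor, had 5 beyond its 5′ end with scores of 4.63 to 7.36. Neither Parp11 nor Zfp217 had a boundary peak. Ly86, a partner of a B cell receptor of the Toll-like family, had 5, and Ccr7, a chemokine receptor gene, had 4 within 7.50 to 23.1 kb; neither had a boundary peak. Zfp706 and Zswim6 had 5 each. Abt1, an activator of basal transcription, Ddit4, a stress-induced inhibitor of mTOR signalling, Zcchc14 and Psd2, an exchange factor for Arf GTPases, had 4 each on 23.2 to 39.4 kb of ground.

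Gene lists of the developing brain, chosen with earlier results of these data known, are read against the 11.1% of all protein-coding genes that were nearest to a weak peak and against the 4.80 weak peaks per Mb of all ground. Among 46 forebrain and neural progenitor transcription factors, 22 were nearest to a weak peak (47.8%), with 35 peaks at 6.56 per Mb (4.57 to 9.13). Of 28 neurogenesis and cortical neuron transcription factors 12 were (7.71 per Mb, 4.57 to 12.2), and of 35 developmental signalling ligands and antagonists 14 were (8.35 per Mb, 5.30 to 12.5). The shares of genes lie well above the background, but 45 of the 46 forebrain genes alone own 5.33 Mb of admitted ground, and of these 3 lists the signalling list was the one whose density interval lay wholly above 4.80 per Mb. Ventral forebrain transcription factors (6 of 18, 6.34 per Mb), midbrain, hindbrain and spinal cord patterning genes (11 of 30, 5.96 per Mb) and radial glia markers (5 of 12, 9.20 per Mb) had intervals that held that value. The signalling interval holds the 5.52 per Mb of autosomes and the 5.64 per Mb of all genes with 50 to 100 kb of ground. Signalling genes with ground own 86.0 kb each on average. Forebrain genes with ground own 118 kb on average, and their interval lies above the 2.70 per Mb of all genes with 100 to 200 kb. Which list stands out thus depends on the value it is read against. No test compared the lists.

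Axon guidance and cell adhesion genes had a low density. Of 42 such genes 4 were nearest to a weak peak (9.52%, 2.66 to 22.6%, an interval that holds the 11.1% of all protein-coding genes), with 4 peaks on 6.13 Mb, or 0.653 per Mb (0.178 to 1.67), and 31 of the 42 had a boundary peak. They own 146 kb of ground each on average, and all genes with 100 to 200 kb held 2.70 per Mb. Cntnap2, an adhesion protein of axons, had 1 weak peak on 166 kb and Sema3a, a repulsive guidance cue, 1 on 172 kb. Taken by the genes on either side of the interval instead of the nearest one, 13 of the 42 were counted (31.0%, 17.6 to 47.1%), against 17.8% of all protein-coding genes. Neuronal synapse and channel genes had 5 of 22 (2.79 per Mb, 0.906 to 6.51), among them 1 peak each at the glutamate receptor genes Gria2 and Grin2b.

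Named genes of the brain lists had 1 to 4 weak peaks each. Sfrp1, a secreted Wnt antagonist, had 4, with scores of 7.65, 8.65, 6.18 and 8.59 at 50.6, 31.6, 11.8 and 20.8 kb. Slc1a3, the glutamate transporter of radial glia, had 4, with scores of 6.86, 8.05, 6.56 and 6.49, of which the closest lay 6.61 kb beyond its 3′ end. Dmrta2, a progenitor transcription factor, had 3 beyond its 3′ end, with scores of 10.01, 7.16 and 12.47 at 36.7, 38.7 and 67.5 kb. Tcf7l2, a transcription factor of Wnt signalling, had 3 with scores of 7.73 to 8.60, and no boundary peak. Wnt7b, a Wnt ligand, had 3 with scores of 6.56, 13.12 and 10.14. Emx2, a cortical homeobox gene, Dlx2, a homeobox gene of ventral forebrain, and Sox9, a transcription factor of glia, had 2 each.

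Lists of other cells were small, and the intervals of their gene shares held the 11.1% of all protein-coding genes. Endothelial markers had 2 of 12 (16.7%, 2.09 to 48.4%), erythroid markers 1 of 12 (8.33%, 0.211 to 38.5%), microglia and white blood cell markers 2 of 14 (14.3%, 1.78 to 42.8%), regulators of other lineages 6 of 28 (21.4%, 8.30 to 41.0%) and housekeeping genes 3 of 18 (16.7%, 3.58 to 41.4%). The housekeeping genes had 4 peaks on 0.280 Mb, or 14.3 per Mb (3.90 to 36.6). The 5 peaks of the microglia list, at Fcgr3, an antibody receptor gene, and C1qb, a complement gene, came to 20.7 per Mb (6.71 to 48.2) on only 0.242 Mb. That interval lies above the 4.80 per Mb of all ground. Microglia list genes with ground own 24.2 kb each on average, and the interval holds the 7.02 per Mb of all genes with 20 to 50 kb. Of the Fcgr3 peaks, 1 overlapped a tRNA gene. H2az1, which encodes H2AZ, had 2 weak peaks of 5.67 and 7.76 at 42.9 and 36.9 kb beyond its 5′ end. H2az2, its paralogue, and Nkx2-4, a homeobox gene, had none on 6.50 and 37.0 kb of ground, and Setd2 had no admitted ground.

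**Figure D3:**
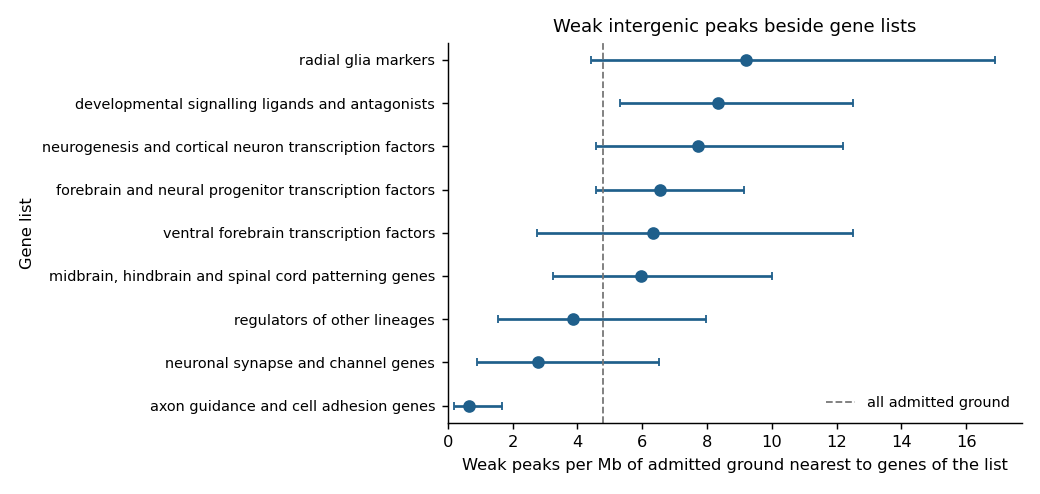
Weak intergenic peaks per Mb of admitted ground (horizontal axis) nearest to genes of each list with at least 1 Mb of ground (vertical axis). Points are densities, bars 95% exact Poisson intervals for counting error, and the dashed line is the 4.80 per Mb of all admitted ground. Of the lists shown, the axon guidance and cell adhesion genes lie lowest at 0.653 per Mb and the radial glia markers highest at 9.20. Lists with less ground are not shown, among them the microglia and white blood cell markers at 20.7 and the housekeeping genes at 14.3 per Mb.

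Weak intergenic peaks often lay in groups. Linked in steps of at most 25 kb between midpoints, 1122 of 3297 (34.0%, 32.4 to 35.7%) fell into 474 clusters, of which 354 held 2 peaks, 83 held 3, 24 held 4, 11 held 5 and 2 held 7. Counting every listed peak, 59.6% (57.9 to 61.3%) had another within 25 kb, and the nearest one was another weak intergenic peak for 29.2% and a boundary peak for 15.3% of the 3297. The same step joined 27.7% of 2654 weak interior peaks, 19.6% of 1156 weak peaks over 100 kb from genes, 19.5% of the 694 at lncRNA ends and 5.12% of the 254 strong ones. Counting every listed peak, 51.1%, 24.9%, 65.3% and 65.4% of these classes, in the same order, had another within 25 kb. The median gap to the nearest listed peak was 18.9 kb in weak intergenic peaks and 22.0 kb over all peaks. These classes differ in number and ground, so the shares are side by side and not a comparison. The median score was 8.00 in clusters of 3 or more, 7.76 in clusters of 2 and 7.76 in peaks alone, and the median width was 1610, 1558 and 1551 bp. A boundary peak stood at the nearest gene of 71.7% (67.1 to 76.0%) of peaks in clusters of 3 or more, 76.0% (72.7 to 79.1%) of those in clusters of 2 and 70.6% (68.6 to 72.5%) of those alone. Peaks of one cluster can share a nearest gene, and these intervals count each peak singly. They are therefore too narrow to tell the 3 shares apart.

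The largest group lay on chromosome 2 between Cstad and 1700001O22Rik. Its 187 kb interval held 12 weak peaks, the most of any of the 12205 intervals longer than 10 kb, in a cluster of 5 (chr2:30613414-30661557) and a cluster of 7 (chr2:30691761-30759683). Scores in the cluster of 7 were 7.46, 14.32, 8.35, 13.42, 10.14, 8.60 and 9.72 from left to right, with steps of 5.25 to 18.2 kb, and 6 of the 7 were nearest to 1700001O22Rik. Within 25 kb of it stood 7 other listed peaks, the highest of 25.61. The other cluster of 7, between Zfp217 and Bcas1, a gene of oligodendrocytes (chr2:170204863-170289215), was lower, with scores of 6.56, 7.36, 6.94, 4.63, 8.24, 8.35 and 7.16, and the highest of 2 other listed peaks near it scored 10.44.

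Of the 11 clusters of 5, the 8 with the shortest spans are described. The tightest lay between Nanos3, a germ cell RNA-binding protein gene, and Zswim4 (chr8:84186133-84204667). Its peaks of 7.46, 7.16, 14.32, 12.53 and 10.14 stood 2.79 to 6.07 kb apart over 18.5 kb. Between Ahdc1 and Wasf2, which encodes a regulator of actin branching, 5 peaks of 5.97 to 9.84 spanned 31.6 kb. Between Fabp6, a bile acid binding protein gene, and Pwwp2a, which encodes a protein that binds H2AZ nucleosomes, peaks of 13.72, 4.66, 10.74, 6.86 and 10.74 spanned 41.8 kb. Between Rbx1, a subunit of cullin ubiquitin ligases, and Ep300, a histone acetyltransferase, peaks of 6.49, 12.23, 13.63, 7.65 and 8.35 spanned 46.1 kb. Neither of these last 2 clusters had any other listed peak within 25 kb. Rad51b and Zfp36l1, an RNA decay factor, bordered 5 peaks of 6.13 to 9.55, and the last of these holds the 9430078K24Rik promoter shown above. Between the tubulin genes Tuba1a, which is neuronal, and Tuba1c, peaks of 4.82 to 10.20 spanned 51.4 kb. Between Cdk15 and Fzd7, a Wnt receptor gene, the first peak scored 7.46 and the other 4 scored 5.97 each.

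**Figure D4:**
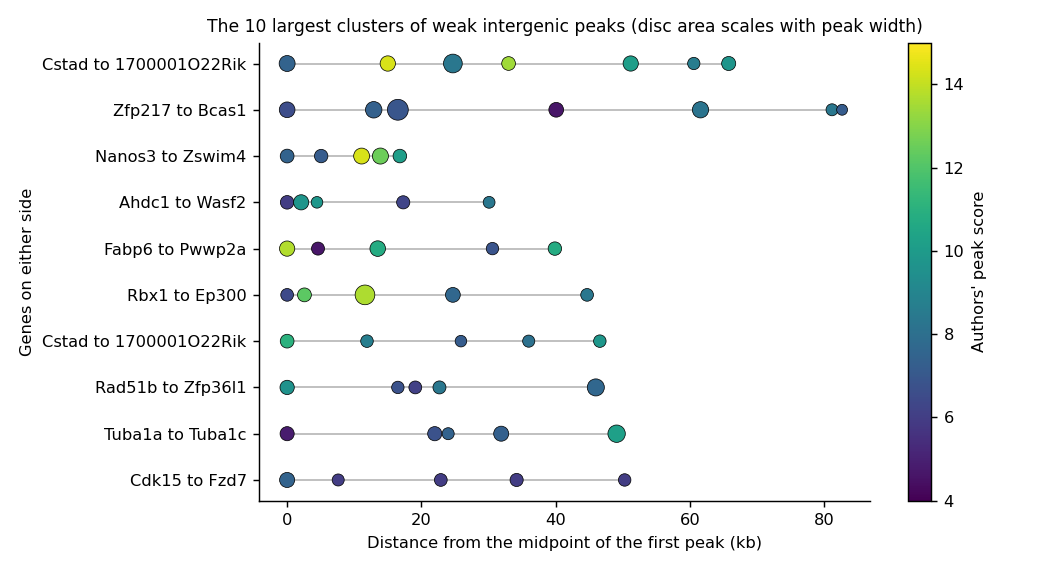
The 10 largest clusters of weak intergenic peaks, 1 per line (ties among the 11 with 5 peaks went to the shorter span), named by the genes on either side (vertical axis), with the distance of each peak midpoint from that of the first peak in kb (horizontal axis). Disc colour is the authors' peak score and disc area scales with peak width; the upper 2 lines hold 7 peaks and the other lines 5, and the peaks between Nanos3 and Zswim4 lie closest together, over 18.5 kb.

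A share of weak intergenic peaks lay on genes that do not code for protein. The body of an lncRNA gene was overlapped by 505 (15.3%, 14.1 to 16.6%), against 10.4% of the admitted ground. These were 449 genes, of which 66 carried 2 or more weak peaks. The share was 17.7% (17.2 to 18.2%) of all listed peaks, which include those at lncRNA ends. It was 18.1% (15.9 to 20.4%) of weak peaks over 100 kb from genes, so it is not particular to the weak intergenic ones. Pseudogenes were overlapped by 1.58% (1.18 to 2.06%), against 3.18% of the ground, 0.835% of all listed peaks and 7.48% (4.56 to 11.4%) of strong intergenic peaks. Of the weak peaks, 81.0% (79.6 to 82.3%) overlapped none of the annotated kinds counted.

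Transfer RNA genes, which RNA polymerase III transcribes, stood out from the ground by the most of the kinds counted. They were overlapped by 35 weak peaks (1.06%, 0.741 to 1.47%), against 0.0413% of the ground and 0.538% (0.445 to 0.645%) of all listed peaks. These weak peaks covered 52 of the 211 tRNA genes on that ground (24.6%), and listed peaks of any class covered 78 of them (37.0%). The scores of the 35 ran from 5.71 to 14.97 with a median of 10.01. Of the 35, 22 lay in chr13:21158098-23773327, among genes of the replication-dependent histone cluster such as H4c8. In that region, whose limits were set after seeing the values, 22 of 28 weak peaks overlapped a tRNA gene. Without chromosome 13 the share was 0.421%. At Abt1 in that region, 3 of the 4 weak peaks held tRNA genes. The highest-scoring weak peak, beside Slc47a1, held the tRNA gene n-TWcca5. Strong intergenic peaks overlapped tRNA genes in 4.72% (2.46 to 8.11%), so tRNA genes are not particular to the weak ones. Small nuclear RNA genes, whose products work in splicing, were overlapped by 10 weak peaks (0.303%, 0.146 to 0.557%). The share was 0.0767% of the ground and 0.153% (0.105 to 0.215%) of all listed peaks, whose interval overlaps that of the weak ones. Of the 10, 4 lay on chromosome 11 with Gm11634, Rdm1 or Arl4d as the nearest gene. Copies of both kinds of gene are near-identical, so reads could have been placed at the wrong copy, and this was not tested.

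**Figure D5:**
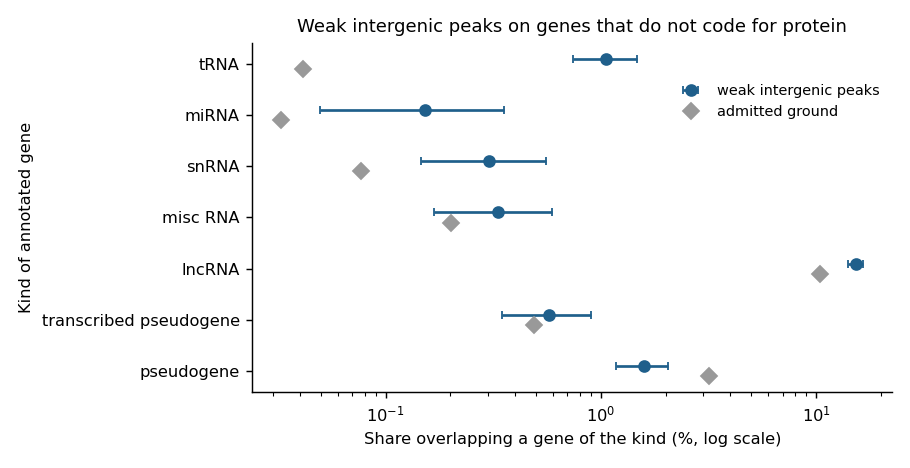
Share in percent (horizontal axis, logarithmic) of weak intergenic peaks and of the admitted ground that overlap annotated genes of each kind that does not code for protein (vertical axis). Circles are the 3297 weak peaks with 95% exact Clopper-Pearson intervals, diamonds the ground for windows of the median width; tRNA genes show 1.06% of weak peaks against 0.0413% of ground, and pseudogenes 1.58% against 3.18%.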

How the data were processed

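One deposited peak list, with start, end, name and score, holds all values used. The score comes from the authors, per peak, and the file does not say what it measures. Starts were deposited counted from 0 and are printed from 1. The caller named in the peak names is MACS, per the deposited file, with settings and control not given in the sources used here. The submitters' processing notes name CASAVA 1.4, FastQC, Bowtie2 2 and mm9. Positions were nevertheless read as GRCm38, since 51.6% of peaks fell within 1 kb of an end of a protein-coding gene in RefSeq GRCm38.p6, against 8.32% after a shift of 1000 kb. The same share was not counted with mm9 gene positions, so this check does not compare the builds directly. Numbers in the peak names reach 32646 for 21592 peaks, so peaks of a longer list are not analysed here. The 46 peaks numbered after the last Y peak stand out of order and were dropped, and 1 of them would meet the rule.

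Distances run from peak midpoints to the outermost ends of 21774 protein-coding genes. Admitted ground was measured on a 100 bp grid with windows of 1560 bp, overlap means at least 1 bp, and strand came from the RefSeq promoter table for 80.3% of these genes. Members and lists were chosen with earlier results of these data known. Named genes are the 20 nearest to the most weak peaks (without olfactory receptor and predicted genes, ties by weak peaks per 100 kb of ground), those beside the 10 largest clusters (ties by shorter span), the 3 with the most in each list (some in counts only, and some not reported here), Setd2, H2az1, H2az2, Nkx2-4, and those at the widest peaks or next to a limit. Samples were grouped by the antibody label into 1 ChIP and 1 input library, and the input has no values here. Python 3.11.15, numpy 2.4.6, pandas 2.3.3, scipy 1.17.1 and matplotlib 3.10.9 were used. On 800 simulated peaks the calls differed in 0 cases from direct comparison. Alternatives covered the score and distance limits, the lncRNA criterion, gene kinds, cluster step and boundary definition.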

Additional observations from a re-analysis of the deposited data

How the results depend on the processing

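No paired analysis was possible because there is 1 library per group and 1 peak list, so nothing was left out in turn and no result has a replicate check. Of 78 alternatives, 61 moved a value by less than its counting interval or a count by less than 1.5 times. The share of weak peaks with another within 25 kb (34.0%) was 32.1% with scores under 12, 30.4% without the lowest-scoring 10% of peaks, 40.2% without the lncRNA criterion, 27.8% with genes of every annotated kind, 18.5% with a 10 kb step and 46.9% with a 50 kb step. The share with a boundary peak at the nearest gene (71.9%) was 38.1% with genes of every kind (against 32.1% of all genes), 79.3% with 5 kb around a gene end (against 60.8% of all protein-coding genes) and 57.3% with boundary peaks at or above the median score (against 44.4%). The median distance (25.6 kb) was 31.2 kb with a lower limit of 10 kb, 18.4 kb with an upper limit of 50 kb, 24.3 kb without lncRNA gene bodies and 15.9 kb with genes of every kind, and the median width (1560 bp) was 1541 bp with scores under 12. Limits of distance and step set these values by construction, and otherwise the cause was not tested. Chosen after seeing the data were the tRNA share (1.06%), which was 0.421% without chromosome 13, and the density ratio (2.47), which was 2.02 on autosomes, with their alternatives. The X to autosome ratio of densities was 0.106 per Mb of admitted ground and 0.149 per Mb of chromosome span. Of 28 alternative counts of gene lists, 6 moved, all by counting the genes on both sides of an interval.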

Other observations

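The widest weak intergenic peak measured 7492 bp, with a score of 6.59, and lay 6134 bp from 1600014C10Rik. It was followed by peaks of 4605 bp beside Nap1l1, a nucleosome assembly factor that binds H2A and H2B, of 4454 bp beside Nfe2l2, the transcription factor of the oxidative stress response, of 4406 bp beside Zfp516 and of 4016 bp beside Gm46353. The 5 had scores of 6.59 to 11.26, and 46 of the 3297 reached 3000 bp. The median width was 1703 bp in the 97 peaks with scores under 5, 1506 bp at scores of 6 to 8 and 1814 bp at 12 to 15.

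Between genes, 266 intervals held 3 or more weak intergenic peaks and 968 of the peaks (29.4%). After the interval between Cstad and 1700001O22Rik, the most were 9 in 171 kb between Papola, the poly(A) polymerase gene, and Vrk1, with scores of 5.07 to 14.32, then 8 in 192 kb between Zfp217 and Bcas1 and 8 in 259 kb between Rad51b and Zfp36l1. In 98.5 kb between Tex44 and Ptma, the prothymosin gene, there were 6, with scores of 6.56 to 12.53. The lncRNA genes Gm16364, Gm46361 and Gm46414 carried 4 weak intergenic peaks each, of which Gm46361 overlaps the cluster beside Rad51b.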
